A study of Mus musculus with 8 samples.

Results

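Genes of the general splicing machinery were examined in the lateral ganglionic eminence (LGE), the ventral forebrain region that produces striatal neurons. The mouse embryos had a conditional knockout of Meis2 or were littermate controls. The genes were the protein-coding ones whose symbols name an SR protein (Srsf), an hnRNP (Hnrnp), a subunit of splicing factor SF3A or SF3B, an snRNP protein (Snrp) or U2AF, with the imprinted gene Snrpn left out. The rule gave 53 genes out of 13643 protein-coding genes and 16913 genes in all, namely 11 SR protein genes, 20 hnRNP genes, 9 SF3A and SF3B genes, 11 snRNP protein genes and 2 U2AF genes. RNA came from LGE dissected at embryonic day 14.5. The 4 Meis2-CKO samples were Dlx5/6-Cre;Meis2F/F, with both Meis2 alleles floxed, and the 4 littermate control samples (Ctrl) were Dlx5/6-Cre;Meis2F/+, with 1 floxed allele. Both groups carried the Cre driver on a mixed background of C57BL/6J and CD1, so the controls were not wild type. The driver is active in Dlx-expressing cells, and other cells of the dissected tissue keep their Meis2 alleles.

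Splicing starts when the U1 snRNP pairs with the 5′ splice site and U2AF binds the pyrimidine tract and the AG at the 3′ splice site. The U2 snRNP, with its SF3A and SF3B complexes, then settles on the branch point. SR proteins bind exons through RNA-recognition motifs and recruit these factors through arginine-serine repeats, whereas hnRNPs coat nascent transcripts and often oppose the use of a site. In the developing brain, changes in the balance of such proteins accompany the shift from progenitor to neuronal splice forms.

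The values used here are the authors' means, 1 per genotype, which carry no spread between samples and no depth; the columns of values per library could not be matched to a sample label and were not used. The header does not name the unit of the means, called signal here. Signal did not follow exon length across 12038 protein-coding genes of mean signal at least 1 (Spearman's rho -0.01 across genes, which are not replicates), and levels of different genes are set side by side here as if scaled per length. In the authors' deposited table Meis2 had a mean signal of 140 in Meis2-CKO and 204 in Ctrl with a log2 fold change of -0.53, a fall past the threshold (adjusted p = 0.00195). All 16 genes of an LGE and striatal list were listed, with Dlx1 at a mean signal of 496 in Meis2-CKO and 393 in Ctrl (adjusted p = 0.370 in the authors' deposited table). Of these 16 genes, 6 fell past the threshold (Isl1, Ebf1, Foxp1, Zfp503, Bcl11b and Meis2) and none rose past it. The Y-linked gene Eif2s3y fell, with a mean signal of 14.0 in Meis2-CKO and 50.5 in Ctrl (adjusted p = 1.02e-16 in the authors' deposited table). Xist had 256 in Meis2-CKO and 78.0 in Ctrl and did not pass (adjusted p = 0.985 in the authors' deposited table). The part of embryo sex in the values below was not tested.

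None of the 53 splicing genes passed an adjusted p of 0.05 in the authors' deposited table, in either direction. Of all genes in that table, 0.78% passed, and over its protein-coding genes 0.344%, so a count of 0 among 53 genes is near the background. At an unadjusted p of 0.05 the count was also 0, against 1.36% of protein-coding genes. Unadjusted p-values in the authors' deposited table ran high, with a median of 0.68 over protein-coding genes of mean signal at least 30. Over the 53 genes the median was lower, at 0.56. A p above 0.5 was held by 52.8% of the 53 genes and by 71.5% of protein-coding genes at that level, a description across genes that are not replicates. The smallest unadjusted p of the group in the authors' deposited table was 0.153, that of Hnrnpf, and each of the 53 genes had an adjusted p of 0.999987. The differences were small. Of the 53 log2 fold changes that the authors' deposited table gives, 37 lay between -0.1 and 0.1, 14 lay above 0.1 and 2 lay below -0.1. The calls of that test at these levels were of larger changes: among 3479 protein-coding genes of mean signal at least 30, 8 were called, all lower in Meis2-CKO, and the smallest called change was the 1.42-fold lower level of Klhl13. The absence of calls does not show that the splicing genes were unchanged.

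**Figure D1:**
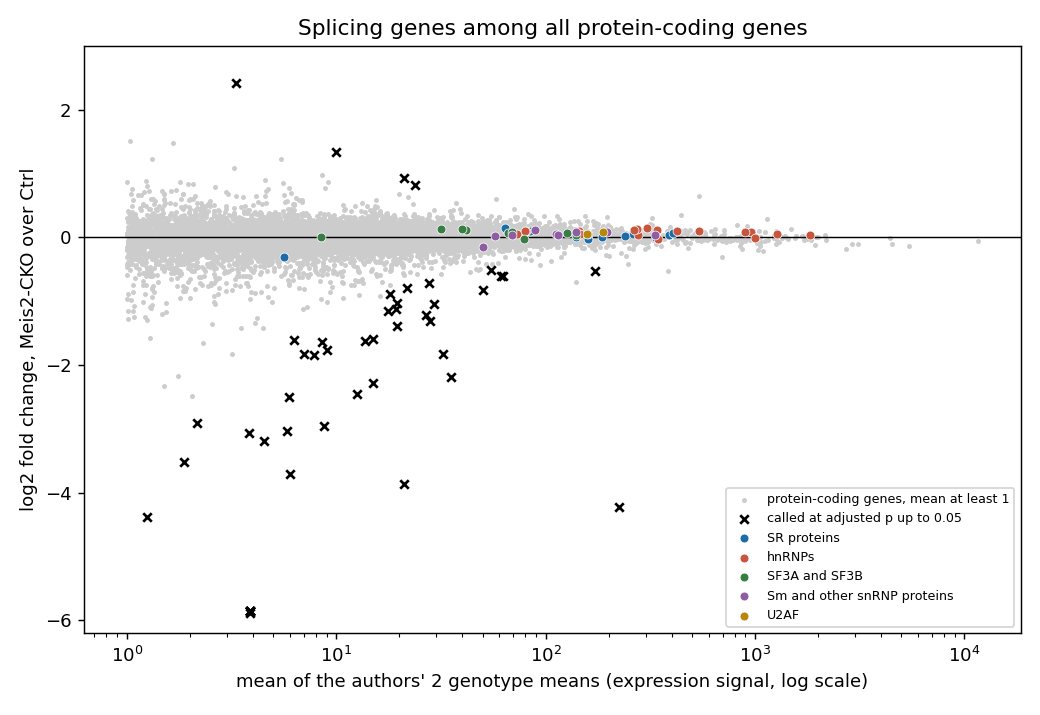
Log2 fold change, Meis2-CKO over Ctrl (vertical axis), against the mean of both genotype means (horizontal axis, expression signal, log scale) for protein-coding genes of mean at least 1 in the authors' deposited table. Grey points are genes not called, crosses are the 47 genes called at an adjusted p of 0.05, and coloured points are the 53 splicing genes, which lie near 0 and include no called gene.

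The signs of these small differences were uneven. Of the 53 genes, 46 had a log2 fold change above 0 and 7 below it in the authors' deposited table, with a median of 0.06. Over the 3479 protein-coding genes of mean signal at least 30, 58.9% lay above 0, with a median of 0.02 and quartiles of -0.04 and 0.07. Of the 51 splicing genes at that level, 23 lay above the upper quartile, 27 between the quartiles and 1 below the lower one. The 7 genes below 0 were Srsf5, Srsf7, Srsf12, Hnrnpdl, Hnrnph1, Sf3b6 and Snrpb2. The count above 0 was 44 by a plain ratio of the genotype means with a pseudocount and 43 after centring on the median protein-coding gene. Sf3b5 and Srsf11 changed sign in both cases, and Srsf10 in the second. Summed over the 53 genes, signal was 14408 in Meis2-CKO and 13961 in Ctrl, a ratio of 1.03, or 2.65% and 2.55% of the table's total in Meis2-CKO and Ctrl. These counts are descriptions. The genes are not replicates of a genotype, and no test was made over them.

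**Figure D2:**
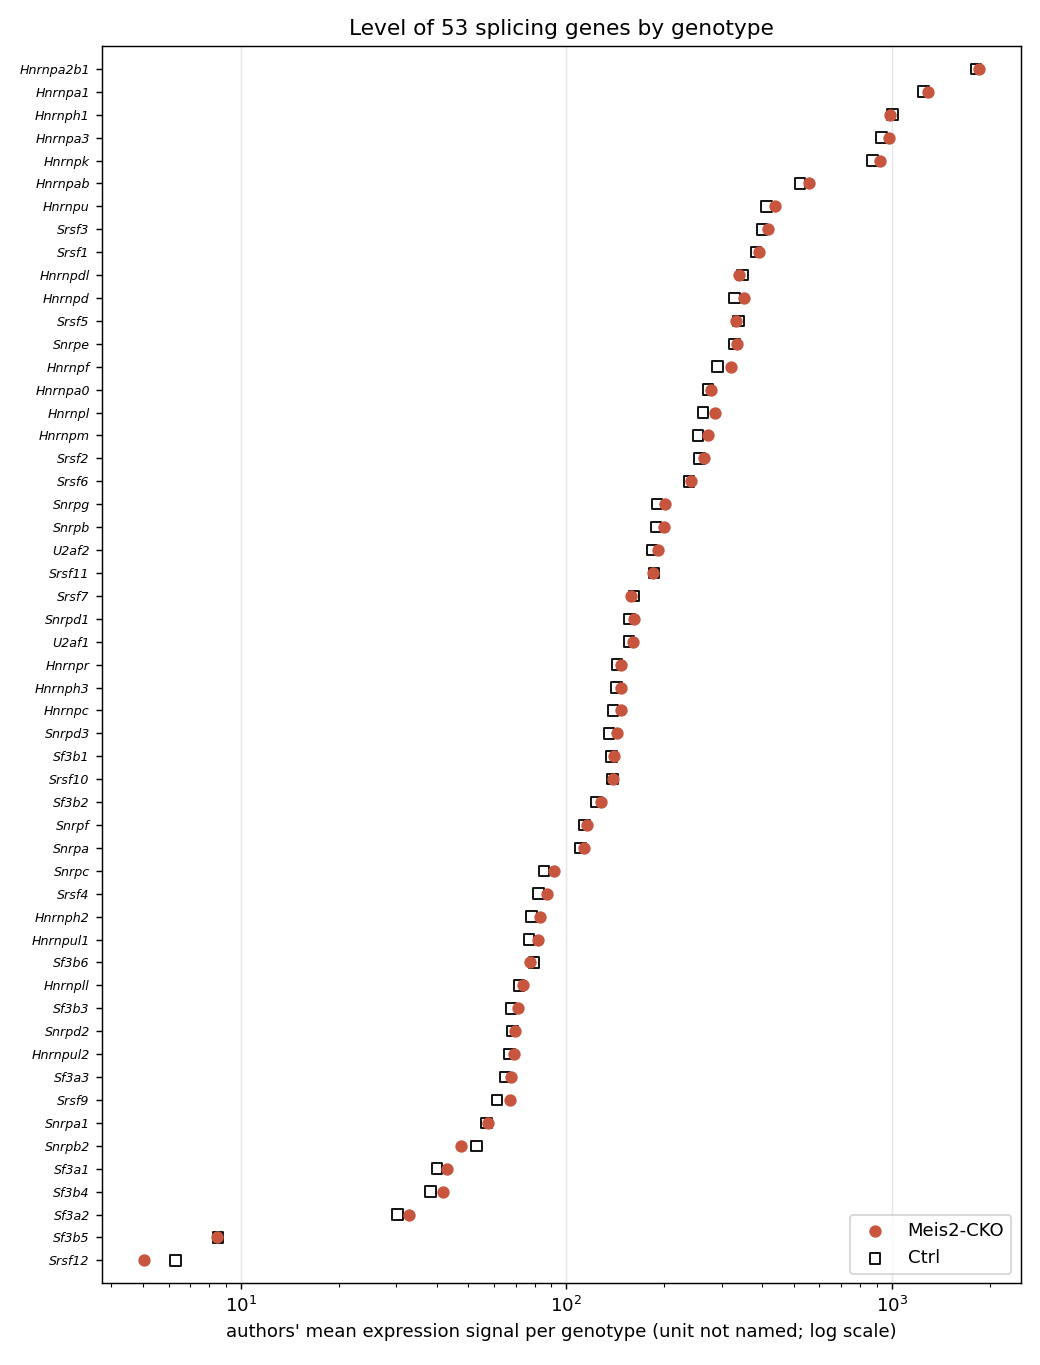
Authors' mean expression signal per genotype (horizontal axis, log scale, unit not named) for each of the 53 splicing genes, ordered by level, with filled circles for Meis2-CKO and open squares for Ctrl. Both symbols nearly coincide for most genes, from Hnrnpa2b1 at 1852 in Meis2-CKO and 1815 in Ctrl down to Srsf12 at 5.04 in Meis2-CKO and 6.29 in Ctrl.

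SR proteins bind exonic enhancers and help define exons. Of their 11 genes, 8 lay above 0 in the authors' deposited table, or 6 after centring, with a median log2 fold change of 0.03. The most abundant was Srsf3, the smallest family member and also an adaptor of mRNA export, with a mean signal of 416 in Meis2-CKO and 400 in Ctrl (log2 fold change 0.07 by the authors' deposited table). Srsf1, the founding member, had 390.0 in Meis2-CKO and 383 in Ctrl. Srsf5 had 332 in Meis2-CKO and 338 in Ctrl. These 3 genes thus differed by less than 5% between the genotype means. The highest log2 fold changes of the family in the authors' deposited table were 0.14 for Srsf9 (mean signal 67.0 in Meis2-CKO and 61.3 in Ctrl, p = 0.282) and 0.10 for Srsf4 (87.3 in Meis2-CKO and 82.1 in Ctrl, p = 0.403). Srsf2, Srsf6 and Srsf7, which complete the classical members, had log2 fold changes of 0.06, 0.03 and -0.02 in that table. Srsf10 and Srsf11, SR-like proteins, lay at 0.01 and 0.00. The lowest value of all 53 genes was that of Srsf12 (mean signal 5.04 in Meis2-CKO and 6.29 in Ctrl, log2 fold change -0.30 by the authors' deposited table, p = 0.476). Srsf12 was also the least abundant of the 53 genes, and genes at such levels scatter more widely in the table.

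**Figure D3:**
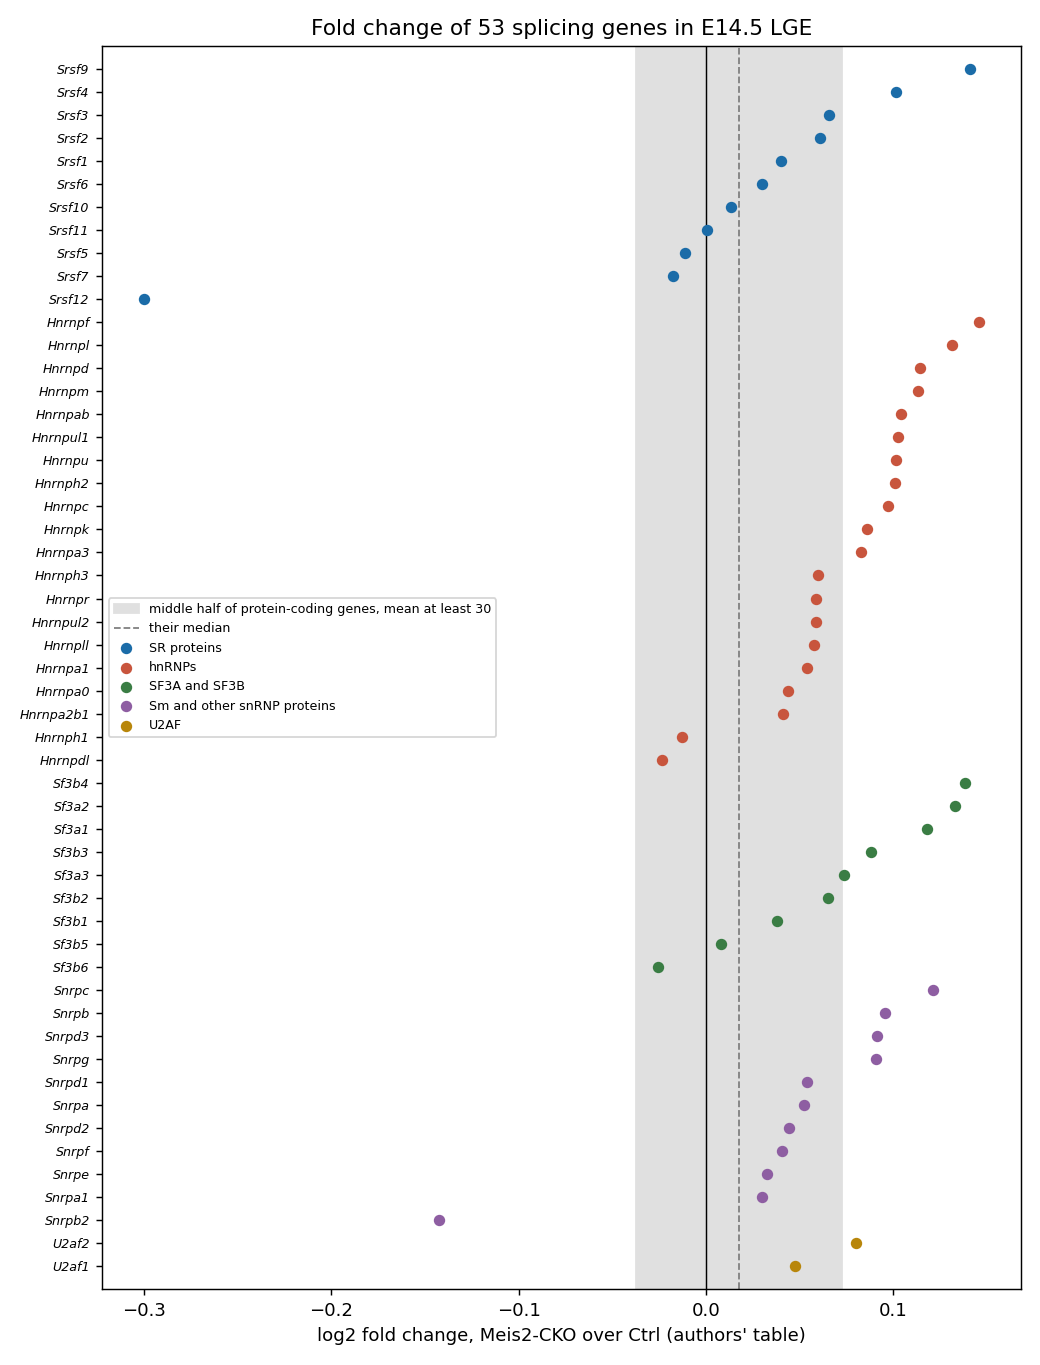
Authors' deposited log2 fold change, Meis2-CKO over Ctrl (horizontal axis) for each of the 53 splicing genes, grouped and coloured by family. The grey band spans the quartiles of protein-coding genes of mean signal at least 30 (-0.04 to 0.07) and the dashed line their median (0.02). Most genes lie to the right of 0 and none beyond 0.15, while Srsf12 and Snrpb2 lie furthest to the left.

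The 7 most abundant of the 53 genes were all hnRNPs, and 18 of the 20 hnRNP genes lay above 0 in the authors' deposited table, with a median log2 fold change of 0.08. The same 18 of 20 lay above 0 after centring. The A/B-type proteins, which bind exonic and intronic silencers, held the top of the range. Hnrnpa2b1 had a mean signal of 1852 in Meis2-CKO and 1815 in Ctrl, and Hnrnpa1 had 1289 in Meis2-CKO and 1251 in Ctrl, with log2 fold changes of 0.04 and 0.05 in the authors' deposited table. Hnrnpa0, Hnrnpa3 and Hnrnpab lay at 0.04, 0.08 and 0.10, so all 5 genes whose symbols begin with Hnrnpa were on the same side of 0. The F and H proteins bind runs of guanines. Hnrnpf had the highest fold change of all 53 genes on the log2 scale in the authors' deposited table, 0.15, with a mean signal of 320.0 in Meis2-CKO and 292 in Ctrl (p = 0.153). Hnrnph1, far more abundant, had 991 in Meis2-CKO and 1007 in Ctrl (log2 fold change -0.01), while Hnrnph2 and Hnrnph3 lay at 0.10 and 0.06. The F/H type thus held both signs. Hnrnpl, which binds CA repeats, had a mean signal of 286 in Meis2-CKO and 263 in Ctrl (log2 fold change 0.13 by the authors' deposited table, p = 0.220), and its paralogue Hnrnpll lay at 0.06. The D-type pair also differed in sign. Hnrnpd, an AU-rich element binding protein, had 352 in Meis2-CKO and 329 in Ctrl, and Hnrnpdl had 339.7 in Meis2-CKO and 348 in Ctrl, with log2 fold changes of 0.11 and -0.02 in the authors' deposited table. Hnrnpu, a nuclear scaffold-attachment protein, had 439 in Meis2-CKO and 413 in Ctrl (log2 fold change 0.10), and Hnrnpul1 and Hnrnpul2 lay at 0.10 and 0.06. The remaining genes Hnrnpc, Hnrnpk, Hnrnpm and Hnrnpr lay between 0.06 and 0.11.

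Both subunits of U2AF lay slightly above 0. U2af2, the large subunit that binds the pyrimidine tract, had a mean signal of 192 in Meis2-CKO and 183 in Ctrl (log2 fold change 0.08 by the authors' deposited table, p = 0.468). U2af1, the small subunit that reads the AG, had 160 in Meis2-CKO and 156 in Ctrl (log2 fold change 0.05, p = 0.631 in the authors' deposited table). Among the subunits of SF3A and SF3B, 8 of 9 lay above 0, or 7 after centring, with a median log2 fold change of 0.07 in the authors' deposited table. The 3 SF3A genes, Sf3a1, Sf3a2 and Sf3a3, lay at 0.12, 0.13 and 0.07. The most abundant SF3B gene was Sf3b1, whose product contacts the branch point region, with 140 in Meis2-CKO and 138 in Ctrl (log2 fold change 0.04). Sf3b4 had the highest fold change of these 9 genes, 0.14 on the log2 scale in the authors' deposited table, at 41.7 in Meis2-CKO and 38.2 in Ctrl (p = 0.390). At the other end were Sf3b6, the branch-point-binding p14 protein, with 77.6 in Meis2-CKO and 79.7 in Ctrl (log2 fold change -0.03), and Sf3b5, with 8.47 in Meis2-CKO and 8.49 in Ctrl (log2 fold change 0.01, a sign that turned after centring). The values for subunits of 1 complex thus ran from -0.03 to 0.14, within the range of the other families.

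The 7 Sm proteins form the ring that surrounds the snRNA in most spliceosomal snRNPs. All 7 genes (Snrpb, Snrpd1, Snrpd2, Snrpd3, Snrpe, Snrpf and Snrpg) lay above 0 in the authors' deposited table, between 0.03 and 0.10, and did so under every scaling tried. Their summed signal was 1225 in Meis2-CKO and 1182 in Ctrl. The ring holds its proteins in equal number, but the signal here is of RNA and does not measure protein. The mean signal of the genes ranged from 69.8 for Snrpd2 to 334 for Snrpe in Meis2-CKO, and from 68.3 to 329 for the same genes in Ctrl. Of the proteins particular to the U1 snRNP, Snrpc had 92.0 in Meis2-CKO and 85.3 in Ctrl (log2 fold change 0.12 by the authors' deposited table, p = 0.297), and Snrpa lay at 0.05. The pair particular to the U2 snRNP was split. Snrpb2, which encodes the U2 B″ protein, had a mean signal of 47.6 in Meis2-CKO and 53.025 in Ctrl (log2 fold change -0.14, p = 0.322 in the authors' deposited table), the lowest value of the 51 splicing genes above a mean signal of 30. Its partner Snrpa1, which encodes U2 A′, had 57.7 in Meis2-CKO and 56.9 in Ctrl (log2 fold change 0.03, p = 0.825 in the authors' deposited table).

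The value of Snrpe, the most abundant Sm gene, may share reads with a processed copy, Snrpert, that is listed separately. Snrpe lies on the minus strand of chromosome 1 (133603871 to 133610291, GRCm38) and Snrpert on the minus strand of chromosome 2 (131322088 to 131322366), and 276 of 279 aligned bases are identical. A 60-base stretch with 2 mismatches, given in capitals, shows how little separates them (GENCODE M21 transcript sequences):
Snrpe: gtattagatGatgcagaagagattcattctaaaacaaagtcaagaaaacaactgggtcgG
Snrpert: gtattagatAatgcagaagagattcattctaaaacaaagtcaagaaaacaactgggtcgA
A read wholly within the lower-case run between the 2 capitals cannot be assigned by sequence to either gene. In the authors' deposited table Snrpert had a mean signal of 79.6 in Meis2-CKO and 85.5 in Ctrl (log2 fold change -0.09, p = 0.448), on the other side of 0 from Snrpe (334 in Meis2-CKO and 329 in Ctrl, log2 fold change 0.03). Other genes of the group also share sequence with genes elsewhere or with genes that overlap them, and the count of shared words does not separate these cases. By 50-base words of the GENCODE M21 transcripts, 10 of the 53 genes shared over 20% of their words with transcripts of other genes and 16 shared under 1%. The highest shares were 89.5% for Snrpf, most of all with the overlapping gene Ccdc38, 61.9% for Hnrnpf and 45.3% for Sf3b4, so the values of these genes are uncertain where reads were split. Of the 10 genes with over 20%, all 10 lay above 0 in the authors' deposited table, and of the 16 with under 1%, 12 did. Across the 53 genes the shared percentage and the log2 fold change had a Spearman's rho of 0.34 and a Pearson's r of 0.25, a description across genes that share libraries. In addition, 26 of the 53 genes are overlapped by another annotated gene, 20 of them on the opposite strand, and the sources name no strand setting for the counting. Among the 27 genes with no such neighbour, 20 lay above 0, with a median log2 fold change of 0.04 in the authors' deposited table. These 27 held all 7 genes below 0, so each of the 26 overlapped genes lay above 0. The part of overlap in the uneven signs was not tested.

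Promoters are shown for 4 genes at the ends of the range, since the title of the series concerns a transcription factor. These are the genes of mean signal at least 10 with the highest log2 fold change in the SR, hnRNP and SF3 families, and the lowest of any family, among those with a single RefSeq promoter. Each runs from 250 bases before to 50 after the start in the RefSeq promoter table, on the plus strand of GRCm38.p6: Srsf9 at chr5:115326927-115327226, Hnrnpl at chr7:28810640-28810939, Sf3a2 at chr10:80798485-80798784 and Snrpb2 at chr2:143062819-143063118. The windows of Hnrnpl and Sf3a2 lie wholly downstream of the GENCODE M21 gene starts, 28808541 and 80798198. Capitals mark matches, on either strand, to any of 4 short motifs. The letters searched were CCGGAAG for the core of ETS-type sites. For NRF1-type sites the hexamer TGCGCA was searched. The CCAAT box was taken as those 5 letters, and the core of MEIS-type sites as TGACAG.
Srsf9: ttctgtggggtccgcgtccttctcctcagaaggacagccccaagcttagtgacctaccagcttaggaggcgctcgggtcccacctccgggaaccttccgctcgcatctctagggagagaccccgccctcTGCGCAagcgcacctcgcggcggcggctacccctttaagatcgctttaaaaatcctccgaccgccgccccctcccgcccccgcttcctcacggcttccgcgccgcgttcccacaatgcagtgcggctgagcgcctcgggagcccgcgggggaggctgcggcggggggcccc
Hnrnpl: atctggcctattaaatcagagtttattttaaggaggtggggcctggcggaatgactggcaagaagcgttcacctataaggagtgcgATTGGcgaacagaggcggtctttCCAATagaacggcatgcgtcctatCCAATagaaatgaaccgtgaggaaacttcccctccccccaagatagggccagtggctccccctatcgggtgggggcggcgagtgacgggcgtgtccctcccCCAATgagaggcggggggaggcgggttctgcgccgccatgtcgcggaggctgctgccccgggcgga
Sf3a2: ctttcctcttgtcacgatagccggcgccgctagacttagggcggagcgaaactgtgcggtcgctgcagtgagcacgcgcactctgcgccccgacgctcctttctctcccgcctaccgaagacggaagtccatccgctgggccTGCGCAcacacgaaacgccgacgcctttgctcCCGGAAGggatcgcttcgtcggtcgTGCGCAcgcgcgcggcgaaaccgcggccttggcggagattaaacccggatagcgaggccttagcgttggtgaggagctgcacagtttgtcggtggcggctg
Snrpb2: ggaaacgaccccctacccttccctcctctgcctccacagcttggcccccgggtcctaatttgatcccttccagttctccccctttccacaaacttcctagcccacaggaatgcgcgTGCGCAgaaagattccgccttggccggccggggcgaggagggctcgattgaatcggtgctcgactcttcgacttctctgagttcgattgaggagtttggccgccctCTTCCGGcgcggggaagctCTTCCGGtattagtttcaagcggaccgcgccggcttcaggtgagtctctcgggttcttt
Snrpb2, with a log2 fold change of -0.14 in the authors' deposited table, held 2 ETS-type cores and 1 NRF1-type hexamer, and Sf3a2, at 0.13, held 1 ETS-type core and 2 NRF1-type hexamers. Srsf9 held 1 NRF1-type hexamer, and Hnrnpl held 4 CCAAT boxes. None of the 4 windows held the MEIS-type letters, and no matches in them overlapped. Of the 53 genes, 46 had a promoter in the RefSeq table, with 61 promoters in all; Hnrnpll, Hnrnpul2, Sf3b4, Sf3b5, Snrpb, Snrpd1 and U2af2 had no match. The ETS-type core was found in 34.4% of the 61 promoters and in 8.86% of all 32851 promoters in the table. For the NRF1-type hexamer the shares were 26.2% of the 61 and 7.76% of all, for the CCAAT box 47.5% and 37.4%, and for the MEIS-type core 11.5% and 19.2%. The 61 promoters were richer in G and C, with a median of 62.7% against 52.7% for all. The shares for all promoters were not limited to genes expressed in this tissue. No set matched for signal or for G and C was taken, so the differences cannot be read as particular to splicing genes. A match of letters is a description and not a binding site.

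Other genes of the splicing pathway gave no call either. Across 6 lists holding 153 genes, 152 were listed. In the authors' deposited table none of these passed an adjusted p of 0.05 (0 genes), and 1, Rbfox1, had an unadjusted p under 0.05. Over protein-coding genes the shares were 0.344% and 1.36%, so both counts are near the background and say little about these lists. Of the 152 genes, 108 lay above 0, with a median log2 fold change of 0.03. The 46 other core spliceosome and tri-snRNP genes had 36 above 0 and a median of 0.04. Among them Snrnp70, the U1 70K protein, had a mean signal of 418 in Meis2-CKO and 422 in Ctrl (log2 fold change -0.0027 by the authors' deposited table). The U5 components Eftud2, a GTPase, and Snrnp200, a helicase, had the smallest p of the list (0.314 and 0.348), each with a log2 fold change of 0.12 or 0.13. Of 15 genes of snRNP assembly 14 lay above 0, including Prmt5, which methylates Sm proteins, at 45.4 in Meis2-CKO and 42.9 in Ctrl, whereas Coil, the Cajal-body scaffold, had 13.4 in Meis2-CKO and 15.4 in Ctrl. Most of the 10 LSm genes encode proteins of the U6 snRNP ring or a related cytoplasmic ring, but Lsm10 and Lsm11 do not. Of the 10, 7 lay above 0, with Lsm2 at 51.7 in Meis2-CKO and 45.2 in Ctrl (p = 0.160 in the authors' deposited table). Lsm3 had 88.2 in Meis2-CKO and 82.6 in Ctrl. The 3 below 0 were Lsm7, at 128 in Meis2-CKO and 132 in Ctrl, Lsm10 (log2 fold change -0.19) and Lsm11 (-0.23). The 28 listed genes of SR protein kinases and SR-related proteins had 19 above 0, with the coactivator Srrm1 at a log2 fold change of 0.15 and Srrm2 at 0.07 in that table. Of 11 exon junction complex genes 7 lay above 0, with Eif4a3 at 0.13 and Magoh at 0.09.

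The tissue-specific splicing regulators spread further than the general machinery. Of 42 genes, 25 lay above 0 and 17 below in the authors' deposited table, with a median log2 fold change of 0.01. The quartiles, -0.03 and 0.07, were close to those of protein-coding genes of mean signal at least 30 (-0.04 and 0.07). The range ran from -0.75 for Rbfox1 to 0.47 for Mbnl3. Mbnl3, named after its values were seen, had 2.12 in Meis2-CKO and 1.51 in Ctrl (p = 0.507 in the authors' deposited table). Both ends were genes of low signal, which scatter more widely in the table. Rbfox1, a neuronal regulator that binds GCAUG, had a mean signal of 8.69 in Meis2-CKO and 14.8 in Ctrl (log2 fold change -0.75, p = 0.0125, adjusted p = 0.927 in the authors' deposited table). Celf5, a CUG-binding protein of neurons, had 43.99 in Meis2-CKO and 53.6 in Ctrl (log2 fold change -0.27, p = 0.0621 in the authors' deposited table). Chosen after their values were seen, the polypyrimidine-tract proteins Ptbp1, the progenitor form, had 111 in Meis2-CKO and 103 in Ctrl (log2 fold change 0.11 by the authors' deposited table), and Ptbp2, the neuronal form, had 215 in Meis2-CKO and 206 in Ctrl (log2 fold change 0.07). Both thus lay on the side of 0 where most of the 53 genes lay. Qk, an RNA-binding protein abundant in radial glia and chosen in the same way, had 118 in Meis2-CKO and 104 in Ctrl (log2 fold change 0.19, p = 0.0947 in the authors' deposited table). Among further neuronal regulators, also chosen after their values were seen, Srrm3 (-0.34), Nova1 (-0.17) and Srrm4 (-0.02) lay below 0 in that table. Elavl4 (0.11), Khdrbs3 (0.09), Elavl2 (0.08) and Khdrbs2 (0.04) lay above it, and Nova2 lay at 0.00.

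**Figure D4:**
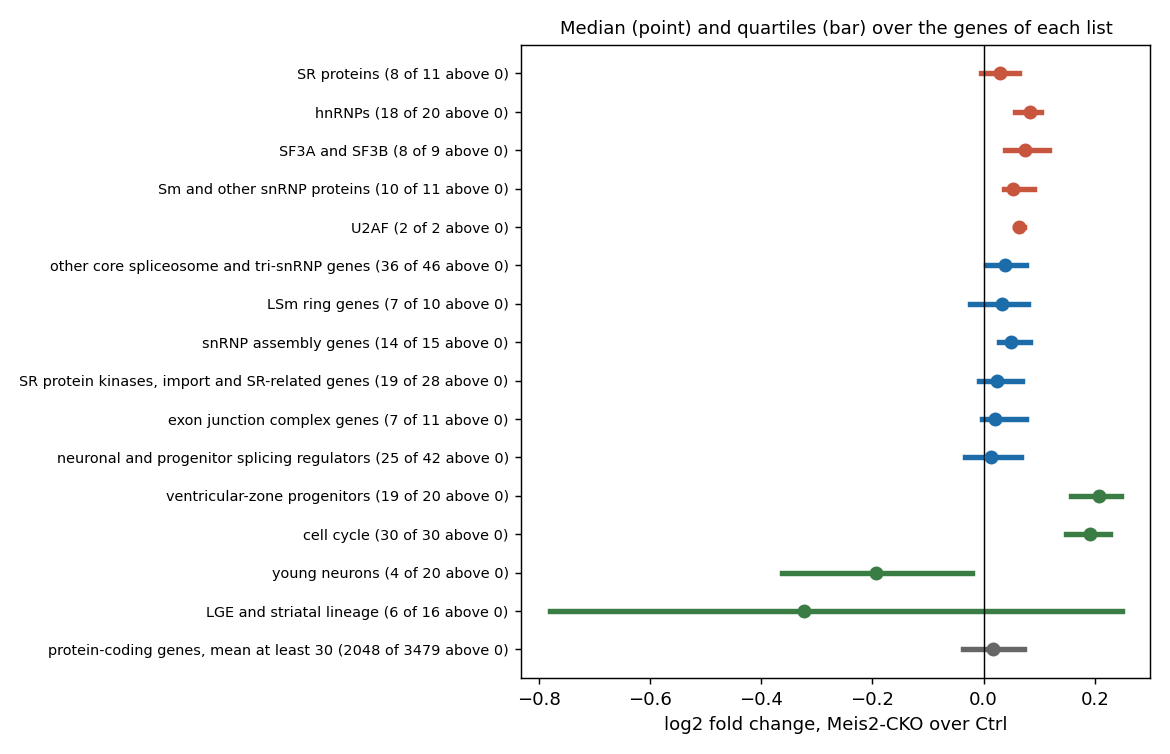
Median (point) and quartiles (bar) of the authors' deposited log2 fold change, Meis2-CKO over Ctrl, for the 5 families of splicing genes (red), 6 other splicing lists (blue), 4 marker lists (green) and protein-coding genes of mean signal at least 30 (grey). The splicing lists lie between 0.01 and 0.08 and the progenitor and cell-cycle lists near 0.2, while young-neuron genes lie at -0.19 and LGE and striatal genes at -0.32.

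Lists of cell-state markers, given beside the splicing genes, had larger medians. Of 20 ventricular-zone progenitor genes, 19 lay above 0 in the authors' deposited table, with a median log2 fold change of 0.21 and a summed signal of 2736 in Meis2-CKO and 2421 in Ctrl. All 30 cell-cycle genes lay above 0, with a median of 0.19 and a summed signal of 2844 in Meis2-CKO and 2502 in Ctrl. None of these 50 genes was called, a count near the background, since 0.344% of protein-coding genes were called. Pcna, the replication clamp, had 356 in Meis2-CKO and 290 in Ctrl (adjusted p = 0.332 in the authors' deposited table). Of 20 young-neuron genes 4 lay above 0, with a median of -0.19 and a summed signal of 2732 in Meis2-CKO and 3086 in Ctrl, and Nefl and Nefm fell at an adjusted p of 0.05. Of the 16 LGE and striatal genes 6 lay above 0, with a median of -0.32 and a summed signal of 1334 in Meis2-CKO and 1379 in Ctrl. Among the 6 that fell, all past an adjusted p of 0.05 in the authors' deposited table, Isl1, a transcription factor of striatal projection neurons, had 12.5 in Meis2-CKO and 57.9 in Ctrl, and Ebf1 had 3.75 in Meis2-CKO and 21.3 in Ctrl. The median log2 fold change of the 53 splicing genes, 0.06, was on the side of the progenitor lists and smaller. That side also held the medians of the microglial (0.06), red blood cell (0.05), oligodendrocyte-lineage (0.03) and endothelial and pericyte (0.01) lists. The pallial median was 0.15 and that of protein-coding genes of mean signal at least 30 was 0.02, whereas the meningeal fibroblast median was -0.79. Medians above 0 were not confined to the progenitor lists. The endothelial and pericyte median lay no further from 0 than that of these protein-coding genes, so its sign says little. The part of cell composition in these values was not tested, and in bulk tissue fewer cells of a type and less RNA per cell cannot be told apart. Of 11 pallial glutamatergic genes 9 lay above 0, with a summed signal of 235 in Meis2-CKO and 208 in Ctrl. Summed signal was 62.6 in Meis2-CKO and 61.3 in Ctrl for 9 endothelial and pericyte genes, 59.0 and 56.8 for 8 microglial genes, 3058 and 3035 for 8 red blood cell genes, 44.3 and 41.8 for 7 oligodendrocyte-lineage genes, and 4.93 and 7.51 for 6 meningeal fibroblast genes, in Meis2-CKO and Ctrl in each case.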

How the data were processed

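RNA of 4 Meis2-CKO and 4 control samples was sequenced. The submitters' processing notes list HISAT2 2.1.0, StringTie 1.3.1 and FastQC 0.11.5 with the builds mm10 and GRCm38.p2, and assign them no step. No source used here names the tool of the comparison. Per the file headers, the authors deposited a mean expression signal per genotype, a log2 fold change in which positive means higher in Meis2-CKO, and a p-value with its adjusted form. The deposited adjusted p equals a Benjamini-Hochberg adjustment over all 16913 genes (tolerance 1e-09). The table's 8 columns of values per library carry names that match no sample label and were not used, so no SD, standard error or test of individual samples is given, no sample could be left out, and the depth is unknown. The deposited log2 fold changes exceeded the log2 ratio of the means by a median of 0.01 over the 53 genes.

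Every call is the authors', at an adjusted p of 0.05. The genes, families, lists and motifs were chosen with earlier results of these data known. Genes named were the 3 most abundant and the 2 highest and 2 lowest by log2 fold change of each family, the 2 with the smallest p and the most abundant gene of each other splicing list, and markers; others are named within counts of a family or list or as chosen after their values were seen. A gene that this rule names is not reported here. Places, overlaps and 50-base words came from GENCODE M21 (GRCm38), in which all 53 genes matched by Ensembl ID, and promoters from RefSeq (GRCm38.p6). The adjustment step was tested on simulated data. Alternatives were other thresholds, a mean of at least 1 or 10, pseudocounts of 1 and 0.1, centring, equal sums, and removal of overlapped genes; removal of genes sharing 20% or more of their words was added after the data were seen. Biopython 1.88, matplotlib 3.10.9, numpy 2.4.6, scipy 1.17.1 and pandas 2.3.3 were run in Python 3.11.15.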

Additional observations from a re-analysis of the deposited data

How the results depend on the processing

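The count of 0 called genes among the 53 was unchanged at an unadjusted p of 0.05, at an adjusted p of 0.1, with adjustment over protein-coding genes of mean at least 1, with a fold change of at least 1.5 and with a mean of at least 1 in both genotypes. Over the other splicing lists the count of 0 became 1 at an unadjusted p of 0.05. The 46 of 53 genes above 0 became 44 with a pseudocount of 1 or 0.1, 43 after centring, 46 with equal sums and 45 of 51 at a mean of at least 10. The count was 36 of 43 without genes sharing 20% or more of their 50-base words, an alternative chosen after seeing the data. Without overlapped genes it was 20 of 27, a lower share, since all 7 genes below 0 remained. The median log2 fold change of the 53 genes, 0.06, became 0.05 with either pseudocount and after centring (0.0461, 0.0462 and 0.0465). It was 0.0439 without overlapped genes. Over the other splicing lists, 95 of 152 genes lay above 0 after centring, against 108 before it. No paired analysis was possible because the columns of the libraries carry no replicate numbers. Limma and leaving out each replicate were not run, because those columns match no sample label. The depth is unknown, so no limit of detection can be given.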
